A study of Mus musculus with 8 samples.

Results

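The comparison described here sets tdTomato-labelled cells that lie outside the Paneth cell gate after irradiation against labelled cells inside that gate in mice that were not irradiated. It uses 5 of the 8 RNA-sequencing libraries of the study, chosen by their labels: 3 libraries of irradiated tdT+CD24- cells (called derivative libraries below) and 2 of non-irradiated tdT+CD24+ cells (called resting libraries). The 3 libraries of irradiated tdT+CD24+ cells were placed between them. All 3 groups came from Lyz1CreER; R26R-tdT mice of mixed C57/BL6 and 129 background, 8 to 14 weeks old, that had received 10 mg of tamoxifen once, and the irradiated mice were sampled 5 days after radiation. Viable epithelial cells were sorted as negative for DAPI and CD45 and positive for EpCAM, then split by tdTomato and by the surface protein CD24. In this model Cre is driven from Lyz1, so the label marks any cell that expressed Lyz1 when tamoxifen acted, and its descendants. Irradiated and non-irradiated mice both carried the alleles and the tamoxifen. Gate and irradiation both differ between the end groups, no labelled CD24- library without irradiation was analysed here, and the effects of gate and irradiation on this contrast cannot be told apart.

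Paneth cells occupy the crypt base of the small intestine, store antimicrobial proteins in large granules, and give the neighbouring stem cells Wnt, EGF and Notch signals. Most cells that leave the crypt become absorptive enterocytes, which carry a brush border, absorb nutrients and package dietary fat, and the minority become goblet, enteroendocrine or tuft cells. The nuclear receptors HNF4A and HNF4G are known activators of enterocyte genes, and they bind sites of the type CAAAGTCC. CD24 is carried by Paneth cells and is also known on tuft cells, enteroendocrine cells and crypt base stem cells.

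Among the genes that were higher in the derivative libraries were Rbp2, which encodes the retinol-binding protein of enterocytes, and Alpi, the intestinal alkaline phosphatase of the brush border. Their promoters are shown because they were chosen for holding the letters CAAAGTCC, a site of the HNF4 type. Each line gives the 150 bases before the RefSeq start site in GRCm38.p6, 5′ to 3′ on the gene's strand, with CAAAGTCC or its reverse complement in capitals.
Rbp2 promoter (chr9:98490387-98490536, plus strand): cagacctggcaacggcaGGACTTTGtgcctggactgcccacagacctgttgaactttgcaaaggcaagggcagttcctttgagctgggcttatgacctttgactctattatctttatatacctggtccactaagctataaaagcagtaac
Alpi promoter (chr1:87101607-87101756, minus strand): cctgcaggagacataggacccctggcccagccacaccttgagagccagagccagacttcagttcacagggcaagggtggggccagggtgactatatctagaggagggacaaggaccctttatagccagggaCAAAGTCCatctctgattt
The 8 letters lie 133 to 126 bases before the start of Rbp2 and 19 to 12 bases before that of Alpi. On either strand they occur in 467 of all 32851 RefSeq windows of 300 bases, or 1.42%. A match of letters is a description of these windows and not evidence of binding.

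The precursor loci of 2 microRNAs known from enterocytes, miR-192 and miR-215, were also higher in the derivative libraries. Their mature forms are shown because they share a seed (bases 2 to 8, in capitals), by which a microRNA recognises its targets.
miR-192-5p (chr19:6264857-6264877, plus strand, GRCm38.p6): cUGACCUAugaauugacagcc
miR-215-5p (chr1:185313610-185313630, plus strand, GRCm38.p6): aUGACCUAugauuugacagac
These libraries were not made for small RNA, so the values stand for reads over the precursor locus or its host transcript and not for the mature microRNA. Mir215 was at 0.322 and 1.87 FPKM in the resting libraries, at 0.508, 1.46 and 1.01 in the irradiated CD24+ libraries and at 8.85, 10.0 and 19.8 in the derivative libraries. Mir192 was lower throughout, at 0.125 and 0.256 FPKM in the resting and 1.67, 1.3 and 3.93 FPKM in the derivative libraries. Genes were tested if they reached 1 FPKM in at least 2 libraries. Mir192 met this only through irradiated libraries, the derivatives among them, so its difference is a description. Neither locus overlapped between the end groups. Of 35 microRNA loci with measurable values 7 (20%) were called higher and 0 lower on both scales described below, against 27.5% and 4.98% of all tested genes.

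FPKM is the number of fragments over a gene divided by transcript length and library size. The summed FPKM of the 8 libraries ranged from 540467 to 1638347, and 9362 to 10697 genes reached 1 FPKM in a library. The number of reads was not given in the sources used here, so no counting interval can be set. Antimicrobial and other granule products took 87.7% and 80.8% of the summed FPKM in the resting libraries, 80.4%, 77.1% and 77.9% in the irradiated CD24+ libraries and 17.4%, 12.0% and 9.23% in the derivative libraries. The difference between the end groups had an exact two-sided permutation p of 0.2, the smallest that 3 against 2 libraries allow. Most of it lay in the 29 alpha-defensin entries, which held 80.3% and 74.3% in the resting libraries and 12.0%, 3.26% and 1.72% in the derivatives. On deposited FPKM resting replicate 2 was above replicate 1 in 10625 of 11190 tested genes, and in 48.8% of them after the scaling described below, where the pair differed by more than 2-fold in 380 genes (3.40%). The sort markers followed the gates. Cd24a was at 621 and 663 FPKM at rest and 117, 77.7 and 37.4 FPKM in derivatives, and Epcam was at 140 FPKM or more in every library. Of 32 measured immune markers 27 stayed under 1 FPKM in every library, and Ptprc, which encodes CD45, was at most 0.539 FPKM. The list summed to 527 and 191 FPKM at rest, 368 to 513 FPKM in irradiated CD24+ and 13.6 to 55.8 FPKM in derivative libraries, nearly all of it at rest from Lyz2, a lysozyme that is also on the granule list. Without Lyz2 the sums were 4.52 and 8.78 FPKM at rest, 3.24 to 6.46 FPKM in irradiated CD24+ and 10.1 to 19.8 FPKM in derivative libraries, and the part of immune cells in the results was not tested. The 27 stromal, endothelial, neural and red blood cell markers summed to 6.16 and 58.6 FPKM in the resting and 10.2 to 51.6 FPKM in the derivative libraries, with 5 at 0 throughout. Of 19 measured pancreatic acinar markers 12 were at 0 in every library, and Zg16, which goblet cells also express, supplied nearly all of that list's sum.

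Granule transcripts thus held most of the FPKM of the CD24+ libraries and a minor share in the derivatives. The median tested gene was 0.88 higher in the derivatives on the log2(FPKM + 1) scale as deposited, and -0.02 after each library was divided by its median ratio to the geometric mean of all libraries (the scaled values). Genes were called with limma at a Benjamini-Hochberg adjusted p under 0.05. On deposited FPKM 7349 genes (65.7%) were called higher and 558 (4.99%) lower in the derivatives, whereas on scaled values 3078 (27.5%) were higher and 2792 (25.0%) lower. Sec61b, a channel subunit of the endoplasmic reticulum, is one of 179 genes (1.6%) called higher on the first scale and lower on the second: it was at 73.8 and 107 FPKM in the resting and 135, 143 and 142 FPKM in the derivative libraries, with log2 differences of 0.65 deposited and -0.44 scaled. The account below therefore rests on the 3078 genes (27.5%) called higher and the 557 (4.98%) called lower on both scales, and log2 differences are those of deposited FPKM unless said otherwise. Rescaling to TPM, which raised the median difference of all genes to 2.06, gave 211 lower calls in place of 557. Of the 557 lower genes 208 stayed under 1 FPKM in every derivative library, so they passed the filter on low values only through the CD24+ libraries, where they were high. Any higher genes under 1 FPKM in every CD24+ library, which were not counted, passed it only through the derivatives.

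**Figure D1:**
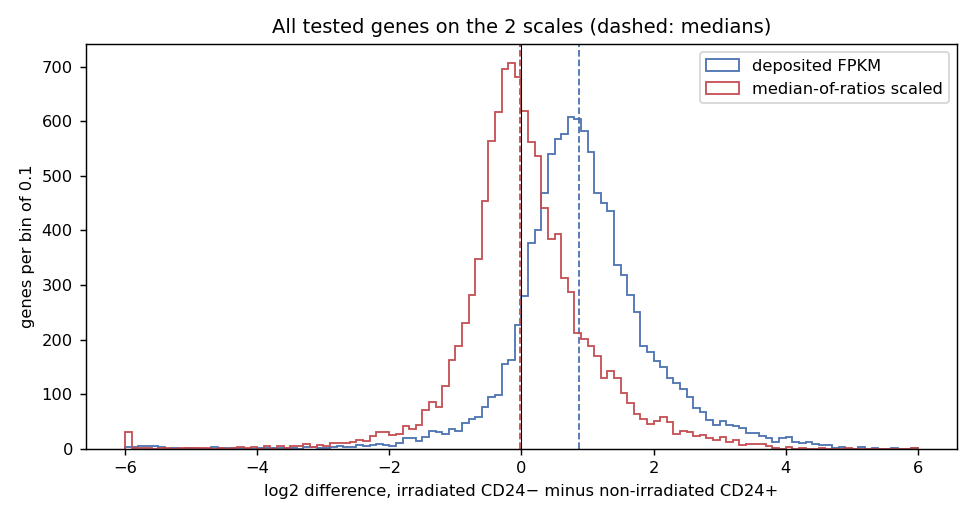
Histogram of the log2(FPKM + 1) difference between irradiated CD24- and non-irradiated CD24+ libraries for the 11190 tested genes (x axis, ends pooled) against the number of genes per bin of 0.1 (y axis), on deposited (blue) and scaled (red) values. The dashed medians lie at 0.88 and -0.02, so the choice of scale moves nearly the whole distribution.

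Paneth granule genes were lower by orders of magnitude. Of 48 measured granule products 39 (81.25%) fell and 3 (6.25%) rose on both scales, against 4.98% and 27.5% of all tested genes. The list's median log2 difference was -5.44 against 0.88 for all tested genes. Lyz1, the lysozyme whose locus drives the label, was at 48892 and 19016 FPKM in the resting libraries and at 2576, 814 and 384 FPKM in the derivatives, so the lowest resting library was still well above the highest derivative library (log2 difference -5.03, SE 0.80, adjusted p = 0.00025). Mmp7, the matrix metalloprotease that activates defensin precursors, was at 2165 and 4093 FPKM against 349, 158 and 130 FPKM. The defensin genes are near-identical copies between which reads can be divided, so single members are uncertain. Defa4 illustrates their spread among derivatives, with 294, 0.107 and 31.9 FPKM against 3773 and 2976 FPKM at rest. In the irradiated CD24+ libraries Lyz1 stood at 36444, 33765 and 31456 FPKM, inside the range of the resting pair.

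The 3 granule-list members that rose were all C-type lectins of the Reg3 family, which bind bacterial surfaces and are also made by enterocytes. Reg3b was at 175 and 1177 FPKM at rest, at 1208, 1952 and 1567 FPKM in irradiated CD24+ cells and at 15377, 33781 and 23833 FPKM in derivatives. No derivative library overlapped the CD24+ libraries, and the irradiated CD24+ values began just above the higher resting library. Reg3g, at 411 and 2235 FPKM at rest, reached 8230, 13010 and 11279 FPKM in derivatives. Reg3b and Reg3g together held 4.05%, 8.03% and 6.50% of the derivatives' FPKM and at most 0.568% in any CD24+ library.

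Regulators and niche signals of Paneth cells fell with the granules. Of 25 measured, 14 (56%) were called lower and 3 (12%) higher on both scales, against 4.98% and 27.5% of all tested genes. On TPM 9 were lower. Of the 14, 2 stayed under 1 FPKM in every derivative library, so they passed the filter on low values only through the CD24+ libraries. Wnt3, the Wnt ligand that Paneth cells supply to stem cells, was at 21.8 and 24.4 FPKM in resting, 20.9, 25.4 and 19.8 FPKM in irradiated CD24+ and 2.61, 1.05 and 1.4 FPKM in derivative libraries (log2 difference -3.21, SE 0.25, adjusted p = 1.1e-05). The derivative libraries stood apart, and the ranges of both CD24+ groups overlapped. Egf, a growth factor ligand of the niche, was at 5.36 and 3.42 FPKM at rest and at most 0.355 FPKM in derivatives. It too passed that filter only through the CD24+ libraries, so its lower value is a description.

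Some of the transcription factors on this list were called lower. Bhlha15, which drives the secretory apparatus of granule-forming cells, was at 51.2 and 36.9 FPKM at rest and at 5.48, 1.83 and 1.43 FPKM in derivatives. Atoh1, the switch for the secretory fate, was at 11.8 and 18.2 FPKM against 11.6, 4.28 and 4.49 FPKM. Its derivative replicate 1 lay just below the resting range, and the groups did not overlap (log2 difference -1.13, limma adjusted p = 0.013). On TPM the log2 difference of Atoh1 was 0.15, of the opposite sign. Sox9 and Spdef, both needed for Paneth cell maturation, fell by 1.63 and 1.5. Kit, Ephb3 and Fgfrl1, which encode cell surface receptors, fell by 2.56, 2.56 and 3.25.

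The members of this list that rose were Efnb1 and Efnb2, which encode the ephrin ligands that position cells along the crypt and villus axis against Eph receptors, and Dnase1, a secreted nuclease. Efnb2 was at 1.25 and 2.43 FPKM at rest, 2.78, 2.28 and 2.40 FPKM in irradiated CD24+ and 22.9, 24.7 and 23.5 FPKM in derivative libraries. Ephb3, a receptor for these ligands, moved the opposite way, from 13.6 and 23.9 FPKM to 3.49, 2.18 and 1.36 FPKM.

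Of 54 genes for translocation into and folding in the endoplasmic reticulum, 3 (5.56%) fell and 1 (1.85%) rose on both scales. Among all tested genes 4.98% fell, near the list's share, and 27.5% rose. On scaled values 35 of the 54 were called lower, against 25.0% of all tested genes. On deposited values 21 (38.9%) were called higher, against 65.7%. The 3 that fell on both scales became 6 without resting replicate 1, 1 with only the end groups fitted, and 0 on TPM or with array weights. Of the unfolded protein response regulators 7 of 20 (35%) were lower and 0 higher on both scales, although 1 was lower on TPM and 4 were with array weights. Among them Ern2, the stress sensor of secretory epithelia, was at 24.7 and 30.7 FPKM at rest against 10.9, 4.36 and 5.65 FPKM in derivatives. Xbp1, the transcription factor downstream of such sensors, differed by 0.49 on deposited (adjusted p = 0.11) and -0.60 on scaled values.

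Markers of crypt base columnar stem cells were lower in derivatives, not higher. Of 23 measured, 11 (47.8%) fell and 0 rose on both scales, against 4.98% and 27.5% of all tested genes. Of the 11, 2 stayed under 1 FPKM in every derivative library, so they passed the filter on low values only through the CD24+ libraries. The count of 11 became 7 without resting replicate 2, 7 without derivative replicate 3, 7 with array weights and 2 on TPM. Lgr5, the receptor that defines these cells, was at 7.72 and 9.84 FPKM in resting, 10.8, 9.71 and 9.34 FPKM in irradiated CD24+ and 1.28, 0.854 and 0.359 FPKM in derivative libraries (log2 difference -2.44, SE 0.24, adjusted p = 1.6e-05). The 2 CD24+ groups lay close together and the derivatives far below. Olfm4, a secreted stem cell glycoprotein, ranged from 461 to 703 FPKM at rest and was at 362, 261 and 37.6 FPKM in derivatives. Ascl2, the stem cell transcription factor, was at 1.80 and 4.42 FPKM against 3.11, 1.26 and 0.334 FPKM and did not pass on deposited values (adjusted p = 0.14).

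Cell cycle genes gave no call that held on both scales in the mitosis list and few in replication. Among 39 mitosis genes 0 passed on both scales, with 17 (43.6%) higher on deposited and 1 lower on scaled values. Among 42 replication genes 1 (2.38%) passed in each direction, with Rfc1, a subunit of the clamp loader, lower. On deposited values 5 of the 42 (11.9%) were higher, and on scaled values 14 were lower. Among all tested genes 27.5% rose and 4.98% fell on both scales, 65.7% were higher on deposited and 25.0% lower on scaled values. Mki67, a marker of cycling cells, was at 5.39 and 10.1 FPKM at rest and 16.5, 7.30 and 5.70 FPKM in derivatives, which overlap. In the list of reserve and regenerative epithelium 3 of 15 (20%, against 27.5% of all tested genes) rose, namely Anxa3, Krt19 and Cxadr. Clu and Ly6a, the usual markers of regenerating epithelium, did not pass on both scales. Clu was at 1.34 and 0.718 FPKM at rest and 1.20, 1.07 and 14.9 FPKM in derivatives, so a single derivative library carried the high value.

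Of 10 Notch receptors and targets 1 rose and 1 fell (10% each, against 27.5% and 4.98% of all tested genes). These were Rfng and Lfng, both Fringe enzymes that modify Notch receptors. Lfng was at 4.69 and 5.10 FPKM at rest and 3.05, 1.49 and 0.503 FPKM in derivatives, whereas Rfng was at 2.54 and 4.49 FPKM against 11.4, 9.98 and 10.6 FPKM. Hes1, the canonical Notch target, rose by 1.02 on deposited values (adjusted p = 0.023) and by 0.03 on scaled values (adjusted p = 0.93). Among 4 ligands Dll3 was lower on both scales, at up to 1.3 FPKM, and Dll1 and Dll4 were not called on both. The lower call among receptors and targets was lost on TPM, with array weights and without resting replicate 1. Dll3 was not called with array weights, and it did not reach the filter without resting replicate 1 or irradiated CD24+ replicate 2.

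**Figure D2:**
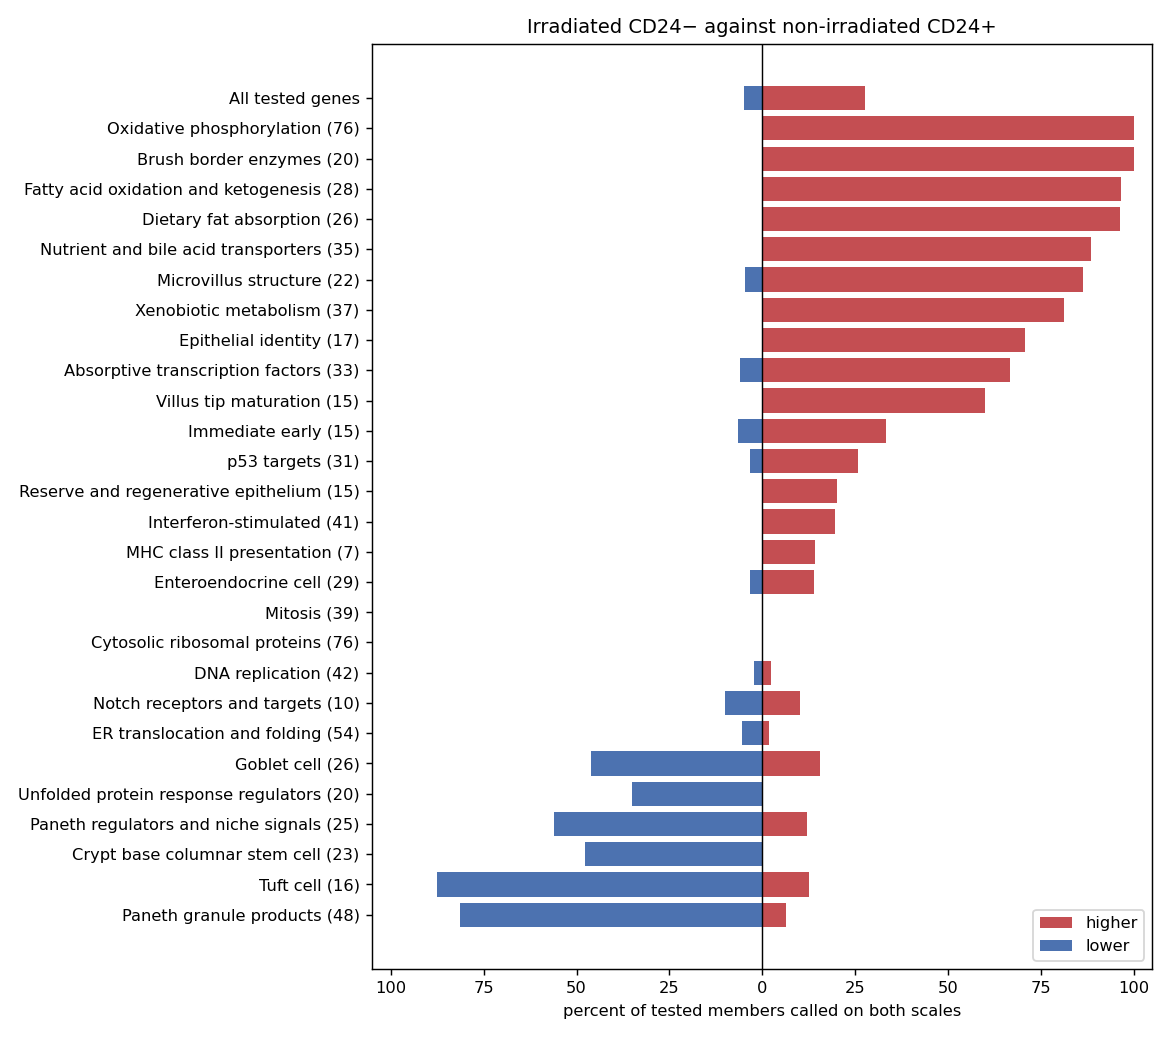
Percent of each list's measured members (number in parentheses) called higher (red, to the right) or lower (blue, to the left) in derivative than in resting libraries on both scales. All tested genes, at 27.5% and 4.98%, stand in the top row, and lists of fewer than 7 measured members are left out.

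Absorptive genes made up the other side of the contrast. Of 26 dietary fat absorption genes 25 rose, of 20 brush border enzymes 20, of 35 nutrient and bile acid transporters 31, of 22 microvillus genes 19 with 1 lower, and of 37 xenobiotic metabolism genes 30, against 27.5% higher among all tested genes. Genes of one list tend to move together from library to library, so each count is a description. Apoa1, the apolipoprotein of nascent lipid particles, was at 61.7 and 372 FPKM in resting, 138, 167 and 223 FPKM in irradiated CD24+ and 3705, 5919 and 6831 FPKM in derivative libraries (log2 difference 5.12, SE 0.63, adjusted p = 5.4e-05). Every derivative library exceeded every CD24+ library, and the irradiated CD24+ values fell between the 2 resting ones.

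The members shown by sequence followed this pattern. Rbp2 was at 55.9 and 291 FPKM at rest, 157, 124 and 171 FPKM in irradiated CD24+ cells and 2732, 3811 and 5218 FPKM in derivatives. Alpi was at 12.7 and 62.0 FPKM, then 27.6, 25.9 and 35.1 FPKM, then 534, 692 and 1069 FPKM. In both genes the irradiated CD24+ libraries lay between the resting pair, and resting replicate 2 was several times as high as replicate 1. Fabp1, the fatty acid carrier of the cytosol, behaved likewise, with 86.5 and 484 FPKM at rest and 3765, 5022 and 7385 FPKM in derivatives.

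Transport and membrane genes rose at lower absolute levels. Slc26a6, an anion exchanger of the apical membrane, went from 3.60 and 13.4 FPKM to 156, 180 and 208 FPKM (log2 difference 4.48, SE 0.39), and Slc40a1, the iron exporter of the basal membrane, from 1.13 and 5.02 FPKM to 40.0, 72.3 and 83.9 FPKM. Slc7a9, a carrier of basic amino acids and cystine, rose by 4.21 and Slc13a1, the sulfate transporter, by 4.62. Microvillus genes Pls1, which bundles actin, and Pdzk1, which anchors transporters, rose by 3.39 and 3.38. The exception was Vill, a relative of villin, at 2.02 and 6.97 FPKM at rest and 0.470, 0.326 and 0.830 FPKM in derivatives. Vill passed the filter on low values only through the CD24+ libraries, so its lower value is a description.

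Energy metabolism rose as a block. All 76 measured subunits of oxidative phosphorylation were called higher on both scales, with medians of 2.30 deposited and 1.21 scaled. So were 27 of 28 genes (96.4%) of fatty acid oxidation and ketogenesis, against 27.5% of all tested genes. With quantile normalization in place of the scaled values these counts were 66 and 21. Cox5a, a subunit of cytochrome oxidase, was at 49.1 and 101 FPKM at rest, 108, 113 and 147 FPKM in irradiated CD24+ and 466, 557 and 557 FPKM in derivative libraries. Cytosolic ribosomal proteins differed from this: 60 of 76 (78.9%) were higher on deposited and 0 on scaled values, against 65.7% and 27.5% of all tested genes. Their median on scaled values was -0.02.

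Of 33 regulators of absorptive and regional identity 22 (66.7%) rose and 2 (6.06%) fell, against 27.5% and 4.98% of all tested genes. The share that fell is near that of all tested genes. With quantile normalization in place of the scaled values 15 rose. Hnf4g was at 8.50 and 17.0 FPKM in resting, 13.7, 12.7 and 8.87 FPKM in irradiated CD24+ and 96.3, 146 and 94.8 FPKM in derivative libraries (log2 difference 3.09, SE 0.32, adjusted p = 2.2e-05). Its partner Hnf4a was already high at rest, with 41.9 and 74.7 FPKM, and reached 249, 187 and 213 FPKM, a difference of 1.92 deposited and 0.83 scaled. On deposited FPKM the irradiated CD24+ libraries were above the resting range for Hnf4a, at 84.7, 93.8 and 78.6 FPKM, and for Hnf4g all 3 lay within it. After scaling they overlapped the resting range for Hnf4a and lay below it for Hnf4g, so both placements depend on the scale. Maf, a transcription factor of mature enterocytes, rose by 2.96, and Nr1i3, a xenobiotic receptor, by 3.10. The 2 that fell were Foxa2 and Foxa3, of the forkhead family, by 0.67 and 1.51, although Foxa2 was 0.38 higher on TPM, where neither was called.

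**Figure D3:**
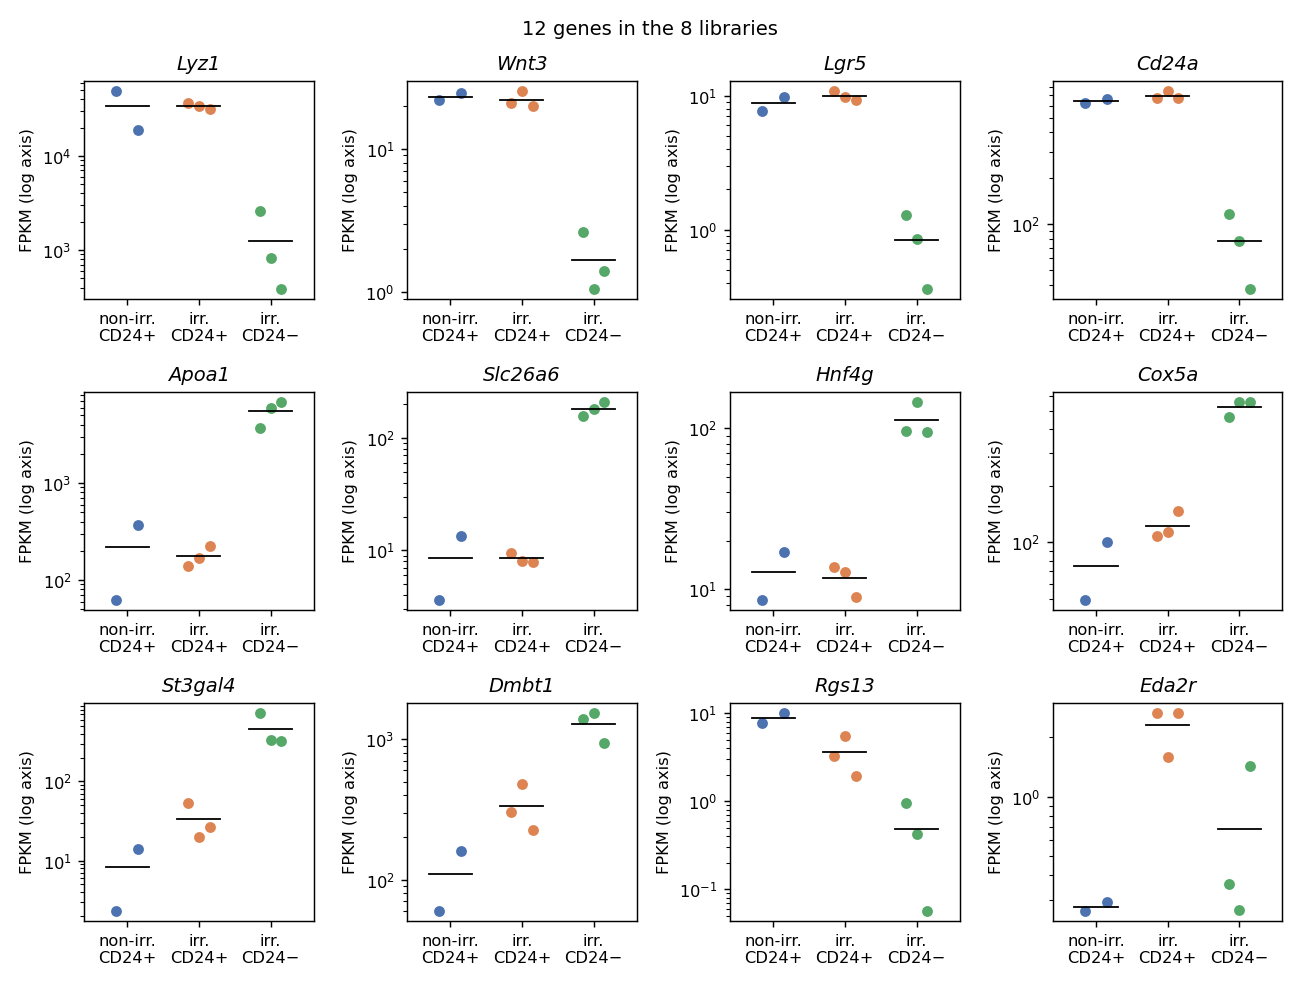
FPKM (log axis) of 12 genes in the 2 resting libraries (blue), the 3 irradiated libraries of the CD24+ gate (orange) and the 3 derivative libraries (green); points are libraries and bars are group means. For Lyz1, Wnt3, Lgr5 and Cd24a both CD24+ groups are high, for Apoa1, Slc26a6 and Hnf4g both are low, and St3gal4, Dmbt1 and Rgs13 have irradiated CD24+ values between the end groups.

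The irradiated CD24+ libraries were used to divide each difference into the part seen within the CD24+ gate and the part seen across the gate. The position of a gene is the irradiated CD24+ minus resting difference divided by the derivative minus resting difference in log2(FPKM + 1), so 0 places it at rest and 1 at the derivatives. Genes were called graded between 0.25 and 0.75 with no overlap among the 3 groups, a step at the gate under 0.25, and a step with irradiation over 0.75, where both scales gave the same class. The classes describe values and are not tests. The step within the CD24+ gate passed limma's test for 0 genes (0.0%) in either direction on deposited values, with 1424 at an unadjusted p under 0.05, and for 0 higher and 3 lower genes (0.0268%) on scaled values, with 854 unadjusted. Pnliprp1 and Siglec5 were among them.

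Of the 3071 higher and 549 lower genes (27.4% and 4.91% of those tested) whose end groups did not overlap, 2006 (65.3%) and 387 (70.5%) were steps at the gate, which are 17.9% and 3.46% of those tested. By contrast 216 higher genes (1.93% of those tested) and 38 lower genes (0.34%) were graded, and 3 (0.0268%) and 1 (0.00894%) were steps with irradiation. The class depended on scale for 744 higher and 115 lower genes and was unresolved for the rest. On deposited values alone 667 higher and 38 lower genes were graded, and on scaled values alone 219 and 123. The resting pair decides many classes: without resting replicate 1 the graded counts were 109 higher and 79 lower, and without replicate 2 they were 497 and 34, with 890 higher steps at the gate. Of the graded genes 53 higher and 16 lower kept the class in all 8 fits that each left out 1 library.

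**Figure D4:**
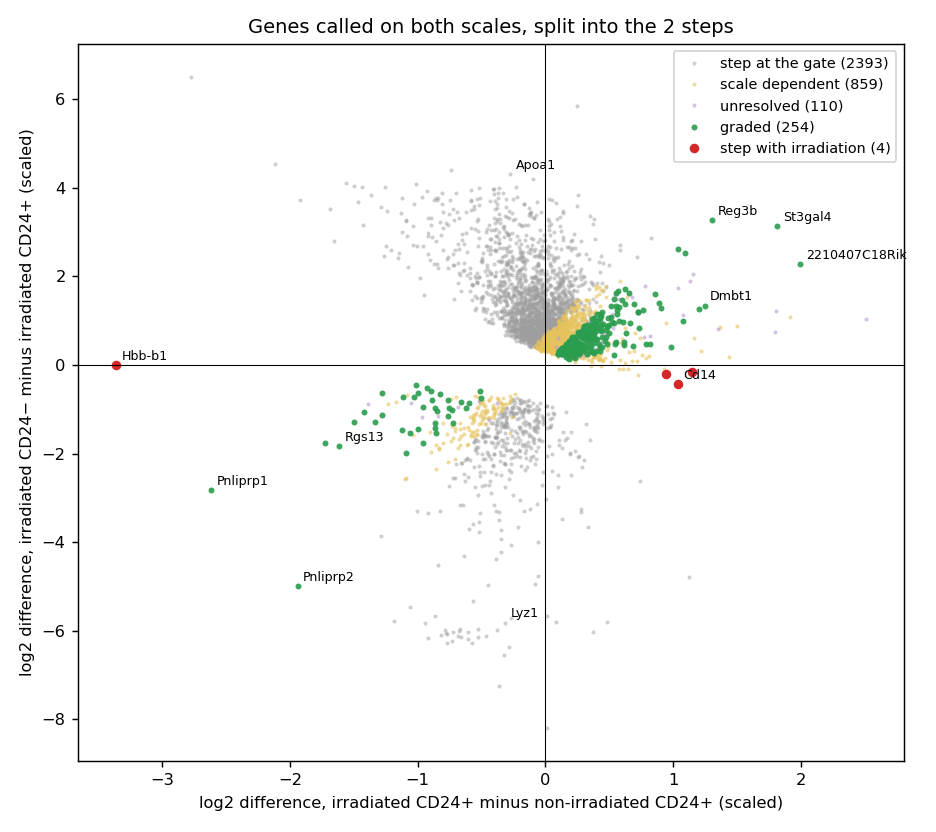
Each gene called on both scales, placed by its scaled log2 difference between irradiated and non-irradiated CD24+ libraries (x axis) and between irradiated CD24- and irradiated CD24+ libraries (y axis), coloured by class with the number of genes in parentheses. Most genes lie along the vertical axis, while 254 graded genes lie in the upper right and lower left and 4 lie along the horizontal axis.

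Steps at the gate held 24 of the 25 higher fat absorption genes, 19 of 20 brush border enzymes, all 31 higher transporters, 28 of 30 xenobiotic genes, 17 of 19 microvillus genes and 8 of 9 villus tip genes. Of the 22 higher regulators of absorptive and regional identity 14 were in this class, 2 were graded and 5 depended on scale. The median positions of the fat, brush border, transporter and xenobiotic lists were 0.03, -0.11, -0.03 and -0.03 on deposited values, near the resting mean. On scaled values they were -0.10, -0.37, -0.25 and -0.24, which places the irradiated CD24+ libraries below rest, away from the derivatives. Among granule genes 37 of 39 lower members were in this class, and the list's median position was 0.04 deposited and 0.10 scaled. Oxidative phosphorylation lay further along, with a median position of 0.26 deposited and 0.12 scaled, and 41 of its 76 genes changed class with the scale.

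Graded genes that rose were led by the following. St3gal4, a sialyltransferase that caps glycans, was at 2.28 and 14.2 FPKM at rest, 52.9, 20.0 and 26.6 FPKM in irradiated CD24+ and 726, 333 and 324 FPKM in derivative libraries (log2 difference 5.93, SE 0.61, adjusted p = 2.1e-05, position 0.36). Reg3b, described above, came next with a log2 difference of 5.67 and a position of 0.31. The transcript 2210407C18Rik had 26.8 and 38.0 FPKM, then 206, 199 and 137 FPKM, then 1307, 2112 and 886 FPKM (log2 difference 5.36, position 0.46). St3gal4 and 2210407C18Rik had no overlap among the 3 groups, although the step within the CD24+ gate did not pass for either (limma adjusted p = 0.35 and 0.10 on deposited values). Without resting replicate 1 St3gal4 left the graded class, as did Reg3b, while 2210407C18Rik stayed in it in all 8 fits that left out 1 library.

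Mucosal defence genes were among them. Dmbt1, a secreted scavenger receptor that binds bacteria, was at 59.3 and 161 FPKM at rest, 304, 483 and 225 FPKM in irradiated CD24+ and 1391, 1534 and 940 FPKM in derivative libraries. Fcgbp, a mucus protein of goblet cells, ran from 46.4 and 74.3 FPKM through 122, 204 and 129 FPKM to 929, 773 and 467 FPKM. Both kept their class in all 8 such fits. Psmb9, a subunit of the immunoproteasome, was graded at 5.33 and 14.2, then 18.4, 21.1 and 16.9, then 88.2, 102 and 63.6 FPKM, and lost the class without resting replicate 1.

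Position on a log scale is not position in FPKM. Counted in deposited FPKM, the graded genes that rose had covered a median of 22.8% of the distance in the irradiated CD24+ libraries (3.80% to 36.2%), and the graded genes that fell 51.0% (30.4% to 81.7%). For Reg3b the share was 3.80% and for St3gal4 5.51%. With positions computed on linear FPKM 67 higher and 51 lower genes were graded.

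Graded genes that fell were led by 2 lipases and by tuft cell genes. Pnliprp2, a lipase related to pancreatic lipase, was at 1865 and 2520 FPKM at rest, 753, 711 and 882 FPKM in irradiated CD24+ and 56.0, 15.9 and 54.5 FPKM in derivative libraries. It lay just inside the lower bound of the class, at a position of 0.25 deposited, and left it in 5 of the 8 fits that left out 1 library. Its relative Pnliprp1 was at 29.4 and 63.8, then 7.77, 7.84 and 11.7, then 0.883, 0.462 and 0.908 FPKM, at a position of 0.46, and kept its class in all 8.

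Tuft cells are chemosensory cells that make prostaglandins and leukotrienes. Of 27 tuft cell genes with deposited values 16 passed the filter on low values. Of these 14 (87.5%) fell and 2 (12.5%) rose on both scales, against 4.98% and 27.5% of all tested genes. Graded and lower were 13, against 0.34% of all tested genes. Of the 14 that fell, 13 stayed under 1 FPKM in every derivative library and 4 reached 1 FPKM in the resting pair alone, so they had to be lower in derivatives to be in the count, which is a description of those genes. Over all 27, both resting libraries were above every derivative library for 23 genes, and the 3 groups fell in order without overlap for 16. Rgs13, a regulator of G protein signalling, was at 7.72 and 9.96 FPKM at rest, 3.28, 5.53 and 1.93 FPKM in irradiated CD24+ and 0.963, 0.422 and 0.0559 FPKM in derivative libraries. Dclk1, the standard tuft cell marker, was low throughout at 1.60 and 1.54, then 0.801, 1.28 and 0.339, then 0.160, 0.0729 and 0.0549 FPKM. The 3 groups did not overlap for either gene.

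The 2 tuft-list members that rose, Ltc4s and Plcg2, a leukotriene synthase and a phospholipase, were steps at the gate and are not restricted to tuft cells. The number of graded tuft genes was 9 without resting replicate 1 and 9 without replicate 2, 5 on TPM values and 3 with a filter at 5 FPKM, which leaves few of these weakly expressed genes. Fewer tuft cells in the sort and less of these transcripts per cell cannot be told apart in bulk libraries, here or for any group of genes above.

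The genes classed as steps with irradiation were few and weakly expressed, and none kept the class in all 8 fits that left out 1 library. Cd14, a receptor for bacterial lipopolysaccharide, was at 1.13 and 1.38 FPKM at rest, 4.15, 4.62 and 4.74 FPKM in irradiated CD24+ and 5.90, 3.90 and 4.78 FPKM in derivative libraries. Steap1, a transmembrane protein of the STEAP family, was at 0.718 and 1.27, then 3.36, 4.40 and 4.45, then 5.24, 6.82 and 4.49 FPKM. Both irradiated groups lay together, above rest. Their step within the CD24+ gate did not pass on deposited values (adjusted p = 0.10 for both). The others were Snora5c, a small nucleolar RNA higher after irradiation, and Hbb-b1, a beta globin gene listed at 0 in all 6 irradiated libraries and at 1.36 and 24.0 FPKM at rest.

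Of 31 measured targets of p53, which respond to DNA damage, 8 (25.8%) rose and 1 (3.23%) fell on both scales, near the 27.5% and 4.98% of all tested genes. Cdkn1a, the cell cycle inhibitor, was at 11.1 and 19.8 FPKM at rest, 31.6, 29.5 and 45.3 FPKM in irradiated CD24+ and 68.6, 56.0 and 153 FPKM in derivative libraries. Eda2r, a receptor of the TNF family, was instead highest in the middle group, at 0.262 and 0.293, then 2.64, 1.59 and 2.64, then 0.362, 0.268 and 1.43 FPKM. Ccng1, which encodes cyclin G1, was at 15.6 and 19.4, then 53.5, 37.0 and 51.2, then 33.4, 31.9 and 71.7 FPKM. For both the irradiated CD24+ libraries lay above the resting pair, and for Eda2r above the derivatives too. The step within the gate passed for neither gene on either scale (limma adjusted p = 0.30 for Eda2r on scaled values). The member that fell was Trp53inp1, at 15.7 and 8.80 FPKM at rest and 2.96, 3.40 and 4.86 FPKM in derivatives.

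Of 41 interferon-stimulated genes 8 (19.5%) rose on both scales, against 27.5% of all tested genes, and 35 (85.4%) on deposited values, against 65.7%. The resting pair differed over this list: replicate 2 was above replicate 1 for 41 of 41 genes, by a median log2 difference of 1.72 on scaled values, where 48.8% of all genes tested had replicate 2 above. Without resting replicate 2 the count was 37 of 40. Without derivative replicate 1 it was 16, with array weights 17 and with a block for replicate number 18. B2m, the light chain of class I molecules, was at 164 and 356 FPKM at rest and 1670, 2178 and 1904 FPKM in derivatives, a step at the gate. Of 7 class II genes 1 (14.3%) rose, or 3 with a block for replicate number. The 1 was Ctss, the protease that trims the invariant chain, which went from 4.82 and 13.7 FPKM to 107, 146 and 126 FPKM. Of 15 immediate early genes, which respond to stimulation and to cell dissociation, 5 (33.3%) rose and 1 (6.67%) fell. These shares are near the 27.5% and 4.98% of all tested genes. With the block 3 rose and 2 fell, and the higher calls depended on resting replicate 1. Zfp36 was at 5.44 and 13.3 FPKM at rest and 35.5, 40.4 and 63.4 FPKM in derivatives.

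Goblet and enteroendocrine markers each went both ways. Of 26 goblet genes 12 (46.2%) fell (1 on TPM) and 4 (15.4%) rose, against 4.98% and 27.5% of all tested genes. Zg16, a mucus lectin, was at 145 and 210 FPKM at rest and 3580, 3954 and 1804 FPKM in derivatives, whereas Spink4, a protease inhibitor that Paneth cells make too, went from 10053 and 7962 FPKM to 2124, 1664 and 946 FPKM. Muc2, the main secreted mucin, was at 92.9 and 159 against 134, 101 and 94.9 FPKM and was not called on deposited values (adjusted p = 0.69). The list's summed FPKM was 14624 and 13773 at rest, most of it Spink4, and 13825, 12422 and 8139 in derivatives. As a share of each library's FPKM this was 0.89% and 0.96% at rest and 2.37%, 2.13% and 1.51% in derivatives. The part of goblet cells in these results was not tested.

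Of 29 enteroendocrine genes 4 (13.8%) rose on both scales (Scg2, Tac1, Cck and Gcg), against 27.5% of all tested genes. Sst, the hormone somatostatin, was the 1 that fell (3.45%, against 4.98%). The higher count was 13 without derivative replicate 1 and 2 without derivative replicate 2 or without either resting library. Cck, the hormone released on fat intake, was at 2.78 and 2.96 FPKM at rest, 17.2, 17.2 and 18.2 FPKM in irradiated CD24+ and 30.5, 119 and 57.0 FPKM in derivative libraries. On deposited FPKM the irradiated CD24+ values of Cck formed a separate middle group. After scaling, irradiated CD24+ replicate 1 lay above derivative replicate 1, and Cck was not classed as graded. Sst took another course, at 23.7 and 24.3, then 39.7, 117 and 84.7, then 7.33, 3.59 and 0.278 FPKM, with the middle group highest. Chga, the granule protein common to these cells, was at 27.3 and 33.0 FPKM at rest and 84.2, 332 and 1132 FPKM in derivatives and was not called on scaled values (adjusted p = 0.12).

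The 3 derivative libraries were not alike. Of 15 villus tip genes 9 (60%) rose on both scales, against 27.5% of all tested genes, and 4 rose without resting replicate 1. On scaled values replicates 1 and 2 differed by more than 2-fold in 140 genes (1.25%), replicates 1 and 3 in 644 (5.76%) and replicates 2 and 3 in 449 (4.01%). Replicate 3 was highest in villus tip and enteroendocrine genes. Ada, an adenosine deaminase of the villus tip, was at 215, 144 and 1593 FPKM in replicates 1, 2 and 3, and Tac1, the precursor of substance P, at 22.2, 104 and 388 FPKM. Clca6, of a family of chloride channel regulators, was at 39.7, 14.2 and 300.2 FPKM, and its difference from rest was not called on scaled values (adjusted p = 0.11).

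Replicate 1 was highest in granule products, such as Defa22 at 3345, 538 and 199 FPKM, and in class II genes, such as Cd74, the invariant chain, at 118, 20.8 and 8.15 FPKM. Cd74 was also highest in replicate 1 of the irradiated CD24+ libraries, at 70.0 against 27.7 and 14.2 FPKM, and Ada in replicate 3, at 63.8 against 7.27 and 7.72 FPKM. The list medians of absorptive regulators and epithelial identity genes differed least across the 3 libraries. A list median can hide members that differ in opposite directions.

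**Figure D5:**
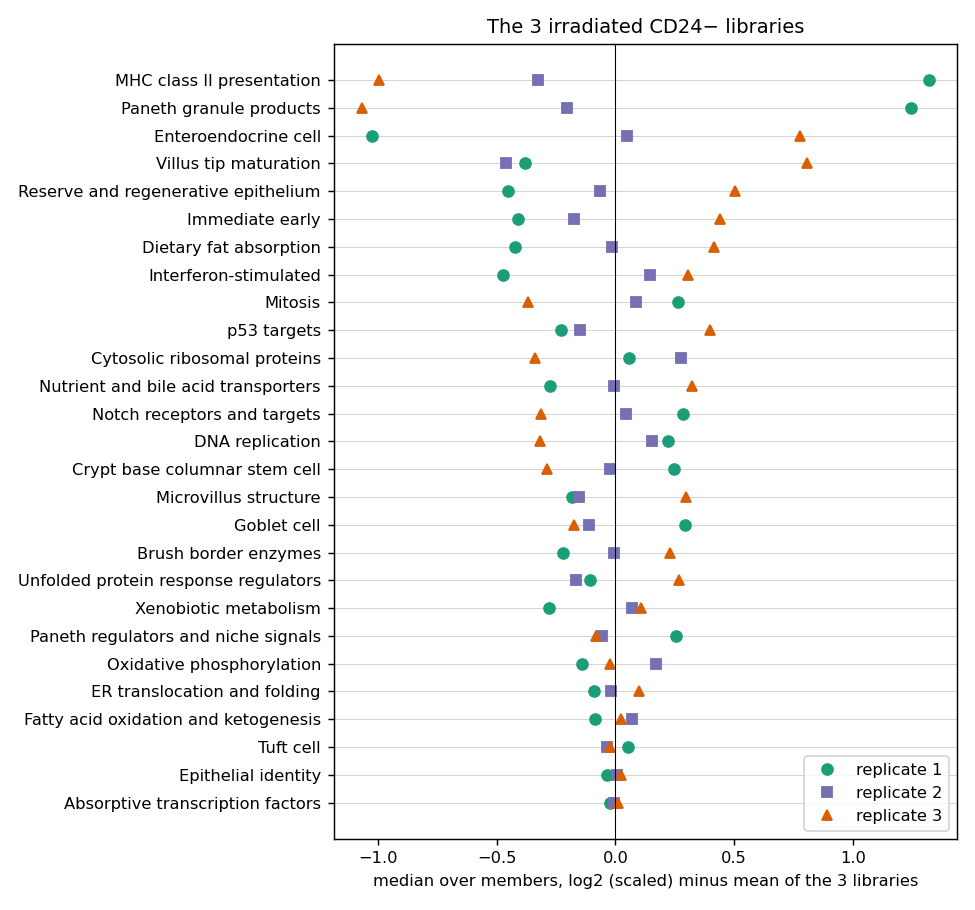
Median over each list's measured members of the scaled log2(FPKM + 1) value in a derivative library minus the mean of the 3 derivative libraries (x axis), for lists of 7 or more measured members (y axis, ordered by spread). Class II, granule, enteroendocrine and villus tip lists spread most, and absorptive transcription factors least.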

How the data were processed

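RNA was extracted with the RNeasy Plus Micro kit and libraries were made with TruSeq RNA v2, per the labels' protocols, a kit that does not mark strand, so overlapping genes on opposite strands cannot be told apart. The authors computed and deposited FPKM values, 1 per gene in each library. TopHat2 2.1.0 and StringTie 1.3.4 are named, with build mm9, by the submitters' processing notes. The annotation is not given in the sources used here. Of 24013 symbols 11190 reached 1 FPKM in at least 2 of the 8 libraries and were tested. All 8 libraries were fitted as log2(FPKM + 1) with limma 3.58.1 in R 4.3.3 (group means, empirical Bayes with a trend), on deposited values and after median-of-ratios scaling. The pseudocount of 1 understates changes of low genes. The method was tested on simulated data.

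Whether libraries of a group came from separate mice is not stated in the labels. Their p-values therefore reflect spread that may be technical. The comparison, the 31 gene lists and the rules were chosen with earlier results of these data known. Named genes were the 10 largest differences in each direction, the 8 largest of each class, up to 4 members of each list, the 6 most abundant genes with opposite calls, the 8 most variable among derivatives and a set of markers. Other genes named were chosen after their values were seen. Some genes that these rules select are not reported here. Sequences are from RefSeq in GRCm38.p6, matched by symbol. Only 75.3% of tested genes had a promoter window, so the planned comparison of motif shares between gene sets was void and is not given. Alternatives were another pseudocount, other filters, TPM, other scalings, fits of 2 groups only, array weights, a robust fit, a replicate block, narrower positions, each library left out and, chosen after seeing the data, positions on linear FPKM.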

Additional observations from a re-analysis of the deposited data

How the results depend on the processing

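Calls depended most on how libraries were scaled. The main counts were 7349 higher and 558 lower on deposited FPKM. Median-of-ratios scaling gave 3078 and 2792, quantile normalization 2729 and 2905, and scaling to FPKM outside Paneth products 2943 and 2232, where 335 higher genes were graded. On TPM 10430 genes were higher and 212 lower, with 3078 and 211 on both scales. With TPM 95 higher and 15 lower genes were graded, 139 lower genes were steps at the gate, 1 gene was a step with irradiation and 5 tuft genes were graded. Without a filter 842 genes were lower, 72 lower genes were graded and 70 were steps with irradiation. At 5 FPKM, where fewer genes are tested, 287 were lower, 286 on both scales, 11 lower genes were graded, 236 were steps at the gate, 1 was a step with irradiation and 3 tuft genes were graded. Positions of 0.33 to 0.67 for graded genes, with overlap allowed, gave 8 steps with irradiation. Positions on linear FPKM, chosen after seeing the data, gave 67 higher graded genes and 188 lower steps at the gate.

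Leaving out 1 library at a time gave 5534 to 8310 higher and 438 to 575 lower genes, 2354 to 3069 and 438 to 575 on both scales, 109 to 497 higher and 34 to 79 lower graded genes, 890 to 2086 higher and 177 to 456 lower steps at the gate, 4 to 14 steps with irradiation and 9 to 14 graded tuft genes.

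Some log2 differences changed sign. Sec61b became -0.44 (median-of-ratios), -1.12 (quantile) and -0.41 (outside Paneth products), Xbp1 -0.60, -1.25 and -0.58, Mki67 -0.74, -0.77 and -0.71, and Dll1 -0.63, -0.61 and -0.60. Quantile normalization turned Hes1 to -0.046 and Ccng1 to -0.17. TPM turned Atoh1 to 0.15, Ascl2 to 0.12, Dll4 to 0.99, Foxa2 to 0.38 and Muc2 to 1.26. Relative to all genes, the ER translocation list became 0.032 without a filter and the stromal list 1.73 at 5 FPKM. Leaving out 1 library gave -0.62 to 0.13 for the stromal list, -0.18 to 0.63 for Mki67 and -0.54 to 0.23 for Muc2. The cause was not tested.

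A block for replicate number gave 7467 higher and 563 lower genes. No label says that a number marks a mouse. Residuals of same-numbered libraries correlated at 0.20 and 0.10 between the end groups, at 0.23 and -0.050 between the CD24+ groups, and at 0.37, 0.23 and 0.40 between the irradiated groups, whose other pairs ran from -0.38 to 0.052. With 2 resting libraries their residuals mirror each other. Within every group the residuals of a gene sum to 0, so positive same-numbered pairs go with lower values in the other pairs. The contrast with the other pairs is thus partly built in. The numbers may pair the irradiated libraries, which was not tested, and the end groups did not meet the same bar. Read depth is not known, so values near 0 FPKM limit the low genes.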
